A study of Mus musculus with 4 samples.

Results

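The wide surroundings of Fgf10 held 22 of the 40716 Meis summits deposited for forelimb (FL) and hindlimb (HL) buds. A summit belonged to this landscape when it lay in chr13:118700000-120000000 of the mouse genome build mm9, a window of 1.3 Mb that reaches 804 kb upstream and 496 kb downstream of the Fgf10 start at 119503506 on the plus strand. Within this window, members were therefore taken by position and not by their enrichment. The locus itself was not a blind choice, because the study had reported Meis sites at Fgf10 from these data. FLs contributed 11 of their 22906 summits, which formed 11 of 21338 peaks, and HLs contributed 11 of their 17810 summits, which formed 9 of 16987 peaks. Maxima that the authors' peak caller had split within 1 interval were counted as 1 peak.

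The series is a ChIP-seq experiment of 4 libraries, in which each limb gave 1 library precipitated for Meis and 1 input library, that is, chromatin that was not precipitated. Both precipitated libraries came from wild-type C57BL/6 embryos at E10.5, about 36 somites, with around 500 FLs pooled for one library and around 500 HLs pooled for the other. The precipitation combined an antibody against Meis1a and Meis2a,c with another against every Meis1 isoform, so that occupancy by Meis1 and by Meis2 cannot be told apart. Whole buds were used, so mesenchyme and ectoderm, as well as anterior and posterior cells, were pooled. Each limb had a single precipitated library, so the values below carry no replicate error, the limbs were compared without a test, and a difference between them describes these 2 libraries. The values were the authors' own: the fold enrichment of each summit over the input, and the p- and q-values of their peak caller. Here q is p as the peak caller adjusted it for multiple testing in that limb. The lists reached down to peaks with p of 0.022 in FLs and 0.0217 in HLs, far weaker than a q of 0.05. The study used the limit of 0.022 to find peaks shared by the limbs, and 0.0005 for peaks specific to a limb. Here every listed peak was counted, so some members found in 1 limb do not reach the study's own limit for such peaks. They hold no read totals, and those that the study states for its libraries were not used here.

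Fgf10 encodes a secreted growth factor made by the mesenchyme of the early limb field, which signals to the overlying ectoderm through the Fgfr2b receptor. The ectoderm answers with Fgf8 from the apical ridge, which sustains Fgf10 in the mesenchyme, and limbs do not form without this loop. Meis1 and Meis2 are TALE homeodomain transcription factors that mark the proximal limb, and they bind DNA alone at a short TGACAG hexamer or together with Pbx and Hox partners at longer composite sites. T-box factors such as Tbx5 in FLs and Tbx4 in HLs act on Fgf10 as well.

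The sequences of intron 1 are given here because the study targeted its 5′ and 3′ sites by genome editing. The study designed guide pairs around the 5′ and the 3′ site of the intron, and each guide matched chromosome 13 of the reference build GRCm38 once. The guides are given with their coordinates in GRCm38, and capitals mark the PAM.
5′ site, left guide (chr13:118721708-118721730, plus strand): gggctccttgcctttaaatcAGG
5′ site, right guide (chr13:118722153-118722175, minus strand): gaattaggttataattgtagTGG
3′ site, left guide (chr13:118735630-118735652, minus strand): gaaatggctatatgtagattTGG
3′ site, right guide (chr13:118736027-118736049, plus strand): ctggctctcacaattaaacaTGG

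With cuts 3 bp from each PAM, the 5′ pair enclosed chr13:118721725-118722158 (434 bp) and the 3′ pair chr13:118735636-118736043 (408 bp), both in GRCm38 and both inside intron 1 of Fgf10. The outermost guides enclosed 14319 bp that hold both sites. The part of the 5′ segment with all of its motif matches is shown first, with the matches in capitals, and the middle of the 3′ segment follows, with no match. Both are the plus strand of GRCm38.
5′ segment, chr13:118721759-118722058: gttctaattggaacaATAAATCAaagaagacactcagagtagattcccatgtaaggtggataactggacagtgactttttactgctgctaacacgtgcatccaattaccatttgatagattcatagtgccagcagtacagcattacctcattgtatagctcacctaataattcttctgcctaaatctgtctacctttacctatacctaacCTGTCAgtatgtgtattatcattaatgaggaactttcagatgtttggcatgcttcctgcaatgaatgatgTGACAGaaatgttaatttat
3′ segment, chr13:118735690-118735989: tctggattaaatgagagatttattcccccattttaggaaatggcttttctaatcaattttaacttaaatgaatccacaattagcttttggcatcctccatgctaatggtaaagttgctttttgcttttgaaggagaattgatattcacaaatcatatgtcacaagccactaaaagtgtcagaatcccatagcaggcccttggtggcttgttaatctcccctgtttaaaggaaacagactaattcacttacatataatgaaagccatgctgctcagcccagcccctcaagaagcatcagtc

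The 5′ segment held 2 copies of the Meis hexamer TGACAG, one on the minus strand at chr13:118721969-118721974 and one on the plus strand at chr13:118722039-118722044. It also held 1 copy of TGATTTAT, a Hox-Pbx octamer, on the minus strand at chr13:118721774-118721781. Neither the second octamer searched, TGATTGAT, nor the T-box core AGGTGT was found in it on either strand, and none of the matches overlapped another. Of 269857 windows of 434 bp along chromosome 13, 25.5% held at least 1 TGACAG and 3.9% held at least 2 copies, while 2.64% held TGATTTAT, 1.75% TGATTGAT and 20.6% AGGTGT. The 3′ segment held none of these 4 motifs, each of which occurred in 24.2%, 2.48%, 1.65% and 19.5%, respectively, of 287054 windows of its length. G and C made up 35.3% of the 5′ and 38.7% of the 3′ segment. A match is a description of the letters, and a missing match says only that these letters were not in this segment. From ChIP-seq, the study reported Tbx5 binding in both deleted regions, and binding of the Hox protein Hoxc10 in the 5′ one.

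Distances from the gene start allowed the peaks, placed in mm9, to be set beside features placed in GRCm38 without moving a coordinate between builds. The distance from the start of Fgf10 to that of Nnt was 694298 bp in both builds, and to that of 3110070M22Rik 773684 bp in both. On the upstream side the distance to the start of Emb, beyond the window, differed by 12089 bp between the builds, so that upstream positions in GRCm38 are less exact. Among the coding neighbours are Mrps30 and B430218F22Rik about 327 kb upstream, and Nnt, a mitochondrial transhydrogenase gene, on the downstream side, beyond the window.

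Counting peaks of any q, both limbs had more peaks per Mb downstream of the start than upstream. The contrast was larger in HLs. In FLs 6 of the 11 peaks were upstream of the start, which is 7.47 per Mb, and 5 were downstream of it, 10.1 per Mb. In HLs 3 of the 9 peaks were upstream, 3.73 per Mb, and 6 downstream, 12.1 per Mb. Of these 6, however, 3 lay within 1285 bp of intron 1. FL peaks with q at most 0.05 lay mostly upstream, at 730, 242, 224 and 15.9 kb, with others 7.26 and 85.7 kb downstream. Such HL peaks lay only downstream, at 7.21 and 21.1 kb. The density of summits was 8.46 per Mb in either limb, against 8.71 per Mb over all chromosomes in FLs and 6.77 in HLs, and windows of the same size held a median of 8 FL summits and 5 HL summits. The folds of the members ran from 2.08 to 13.1 in FLs with a median of 4.12, and from 2.42 to 9.92 in HLs with a median of 3.07, where the median of all peaks was 2.78 in either list.

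Of the FL peaks, 6 of 11 had q at most 0.05 (54.5%, 95% Wilson interval 28 to 78.7%), beside 17.4% of all FL peaks. Of the HL peaks, 2 of 9 did (22.2%, interval 6.32 to 54.7%), beside 10.1% of all HL peaks. At p at most 0.0005 the landscape kept 9 of 11 FL peaks, beside 31.7% of the whole list, and 5 of 9 HL peaks, beside 37.0%. Intervals here and below cover counting error only, and not the choice of a locus where the study had reported Meis sites. Counted over summits, the landscape was 3.03 times as dense as the whole genome in FL summits with q at most 0.05 and 2.2 times as dense in such HL summits, on 6 and 2 summits.

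**Figure D1:**
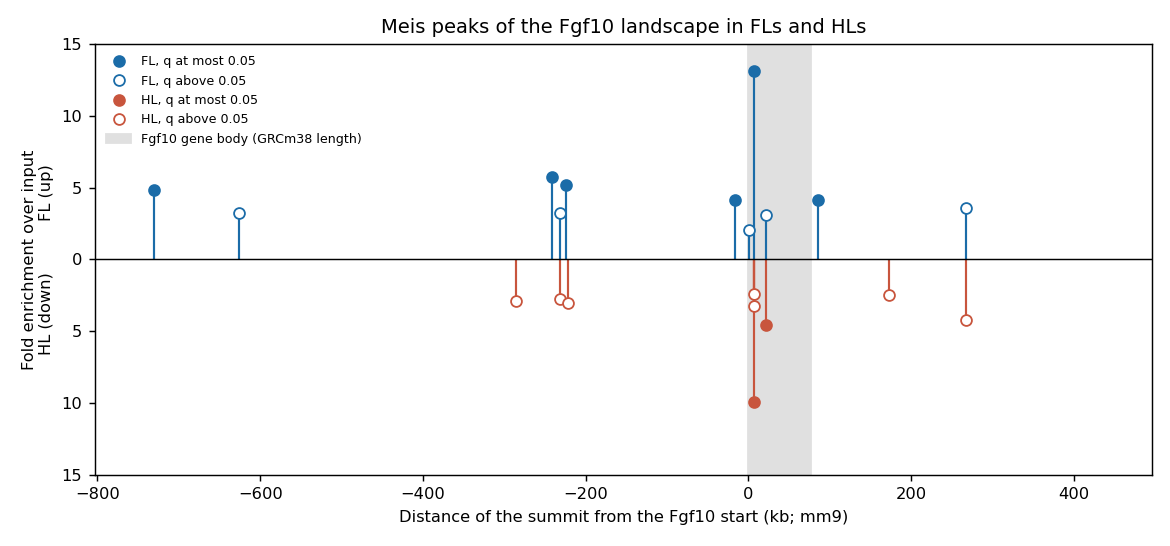
Fold enrichment over input of every Meis peak of the Fgf10 landscape against the distance of its summit from the Fgf10 start in kb (mm9), with FL peaks drawn up, HL peaks drawn down, filled points for q at most 0.05 and the gene body in grey. The site 7.26 kb into the gene reached 13.1-fold in FLs and 9.92-fold in HLs, and upstream of the gene only FL peaks are filled.

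The highest peak of the landscape in both limbs was the 5′ site of intron 1. In FLs it spanned 119510457-119511045 (589 bp) with its summit at 119510769, 7263 bp after the start, and reached 13.1-fold with q = 4.47e-26. This was rank 56 of the 21338 FL peaks by fold, within the top 0.262%. In HLs it spanned 119510477-119510963 (487 bp) with its summit at 119510717, 7211 bp after the start, and reached 9.92-fold with q = 2.89e-18, rank 68 of 16987 or the top 0.4%. The HL interval lay wholly inside the FL interval, and the HL summit was 52 bp closer to the gene start. In each limb this site stood well above the rest of the landscape, 2.3 times the next fold in FLs and 2.18 times the next fold in HLs.

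Around this site the lists differed in the number of intervals. FLs had 1 wide peak there, whereas HLs had 3 separate intervals within 1285 bp. The first HL interval, 119509679-119510008, reached 3.27-fold 6466 bp after the start, and the second, 119510298-119510414, reached 2.42-fold at 6816 bp, both with q of 1. Neither overlapped an FL peak, although the edges of the second and of the FL peak were only 43 bp apart. By distance from the start, both also ended before the deleted 5′ segment, by 523 bp and 117 bp. The segment itself covered 434 of the 589 bp of the FL peak (73.7%) and 432 of the 487 bp of the main HL peak (88.7%), and both summits fell inside it, 237 bp and 185 bp past its left end. The nearer hexamer began 7 bp after the FL summit and 59 bp after the HL summit, and the other one 77 bp and 129 bp after them. The octamer lay on the other side, ending 181 bp before the FL summit and 129 bp before the HL summit.

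**Figure D2:**
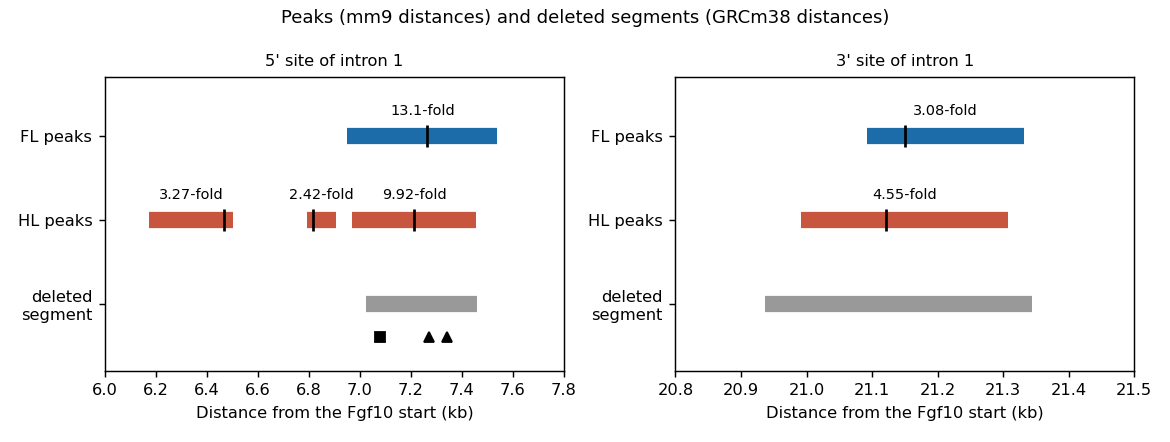
Peak intervals of FLs and HLs with their summits (black bars) and folds at the 5′ and 3′ sites of intron 1, against the distance from the Fgf10 start in kb, and the deleted segments in grey with TGACAG matches as triangles and the TGATTTAT match as a square. At the 5′ site, HLs show 2 additional intervals, of 3.27-fold and 2.42-fold, to the left of the segment.

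The 3′ site of the same intron was the one place where an HL peak with q at most 0.05 had a higher fold than the FL peak. In HLs it spanned 119524497-119524813 (317 bp), with a summit 21122 bp after the start, a fold of 4.55 and q = 0.00806, rank 1074 of its list. In FLs it spanned 119524598-119524838 (241 bp), with a summit 21150 bp after the start, a fold of 3.08 and q = 0.265, rank 7078. The summits were 28 bp apart and the intervals shared 216 bp. Both intervals lay entirely within the deleted 3′ segment, of which the FL peak filled 59.1% and the HL peak 77.7%. The 5′ and 3′ summits were 13887 bp apart in FLs and 13911 bp apart in HLs. The order of the limbs thus differed between the sites, with FLs 1.32 times HLs at the 5′ site and HLs 1.48 times FLs at the 3′ site.

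At the promoter the signal was weak. A single FL peak, 119503643-119503761, had its summit 179 bp after the start, in the part of exon 1 before the start codon, which lies 685 bp after the start in GRCm38. Its fold was 2.08 with q of 1, rank 20775 of 21338, which made it the lowest member in FLs. HLs had no peak in the list there, and the nearest HL summit was 6.29 kb away. Upstream of it, a stronger FL peak at 119487527-119487683 reached 4.12-fold 15.9 kb before the start with q = 0.0206. At that distance GRCm38 holds the antisense transcript Gm16263 and an intron of the longer Fgf10 transcripts that start 44.9 kb upstream. The nearest HL summit to it was 22.4 kb away, inside intron 1.

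Further upstream, FL peaks gathered in a group 224 to 242 kb before the start. Its 3 summits spanned 18.1 kb, in a stretch of GRCm38 without an annotated coding gene, between B430218F22Rik and Fgf10. The outer peaks were the strong ones. The peak at 119261354-119261788 reached 5.71-fold with q = 9.78e-06, 242 kb upstream, and was the highest FL peak of the upstream flank and the second of the landscape, rank 1046. The peak at 119279476-119279959 reached 5.18-fold with q = 0.000536, 224 kb upstream, rank 1419. At 435 and 484 bp, these were also the longest FL peaks after the 5′ site of intron 1, where the median of all FL peaks was 166 bp. Between them, 119271974-119272160 reached 3.24-fold with q = 0.712.

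Only this weaker middle peak had an HL counterpart. The HL peak there, 119271967-119272269, covered all 187 bp of the FL peak and had 2 summits, of 2.78-fold and 2.68-fold, both with q of 1. HLs had a peak near the right-hand FL peak too, at 119282138-119282246 with 3.07-fold and q of 1, the highest HL fold of the upstream flank, but 2179 bp separated the edges of the intervals. The last HL peak upstream of the gene, 119217797-119217933, was 286 kb before the start with 2.87-fold and q of 1. On the whole upstream flank, 4 of the 6 FL peaks had q at most 0.05, where 17.4% of all FL peaks did, and none of the 3 HL peaks did, where 10.1% of all HL peaks did.

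The far upstream end of the window held FL peaks alone. The peak 626 kb upstream, 118877744-118877862 (119 bp), reached 3.23-fold with q of 1. The outermost, 118773254-118773483, lay 730 kb upstream and reached 4.83-fold with q = 0.000321, rank 1765. The nearest HL summit was 445 kb away from it. HLs had no summit over 1001 kb, from 1286 to 286 kb upstream of the start, and 432 of the 17790 gaps between neighbouring HL summits, or 2.43%, were at least as long, against a median of 36.2 kb. In FLs the longest gap that touched the window ran over 384 kb, from 626 to 242 kb upstream, and 6.2% of FL gaps were as long.

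Downstream of the gene body, the peaks were few and moderate. The FL peak at 119589130-119589340 lay 85.7 kb after the start, past the end of Fgf10 at 77.4 kb in GRCm38, and reached 4.12-fold with q = 0.0206. Its fold, p and q were the same as those of the FL peak 15.9 kb before the start, and 146 FL peaks shared this exact fold. HLs had no peak there, but had one at 119676728-119676827, 173 kb after the start, with 2.45-fold and q of 1. The farthest downstream site, 268 kb after the start, was found in both limbs. It reached 3.59-fold with q = 0.499 in FLs (119771188-119771356) and 4.22-fold with q = 0.0826 in HLs (119771097-119771440), where a second summit reached 3.07-fold, and the highest summits of the limbs were only 6 bp apart. No summit of either limb followed within the window. The HL landscape had 2 peaks of 9 with more than 1 summit, beside 4.15% of all HL peaks.

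The edges of the window fell between these peaks. In FLs the outermost upstream member had 4.83-fold and the next peak beyond the edge 3.53-fold with q = 0.186, 887 kb upstream of the start. The outermost downstream FL member had 3.59-fold and the next peak outside 2.53-fold with q of 1, 563 kb downstream. In HLs the corresponding values were 2.87-fold inside and 4.94-fold with q = 0.00263 outside, 1287 kb upstream, and 4.22-fold inside and 2.32-fold with q of 1 outside, 774 kb downstream.

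FL and HL peaks met at 4 sites: 231 kb upstream, 7.26 kb and 21.1 kb into the gene, and 268 kb downstream. This was 4 of 11 FL peaks (36.4%, interval 15.2 to 64.6%), beside 22.6% of all FL peaks, and 4 of 9 HL peaks (44.4%, interval 18.9 to 73.3%), beside 29.0% of all HL peaks. Among peaks with q at most 0.05 the shares differed, on few peaks, and those of the whole lists differed in the same direction. Both such HL peaks overlapped an FL peak (100%, interval 34.2 to 100%), beside 89.3% of the whole HL list. Of the 6 such FL peaks, only the 5′ site of intron 1 overlapped an HL peak (16.7%, interval 3.01 to 56.4%), beside 67.0% of the whole FL list. The other 5, with folds of 4.12 to 5.71, had no overlapping HL peak even at the loose limit of the HL list. The HL signal at these 5 sites, below the limit of the HL list, was not analysed here.

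At the 4 shared sites the folds of the limbs were within 1.5 times of each other and in no common order. The log2 ratio of FL to HL fold was 0.22 at 231 kb upstream, 0.41 at the 5′ site, -0.56 at the 3′ site and -0.23 at 268 kb downstream. Their median was -0.01, beside 0.17 over all 4813 overlapping pairs, whose quartiles were -0.18 and 0.54. In none of the 4 did the FL fold reach 1.5 times the HL fold, as 22.2% of all pairs did. In none was the HL fold 1.5 times the FL fold, as in 7.65% of all pairs, though it was 1.48 times at the 3′ site. The 5′ site and the site 231 kb upstream lay between these quartiles. The 3′ site and the site 268 kb downstream lay below the lower one.

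**Figure D3:**
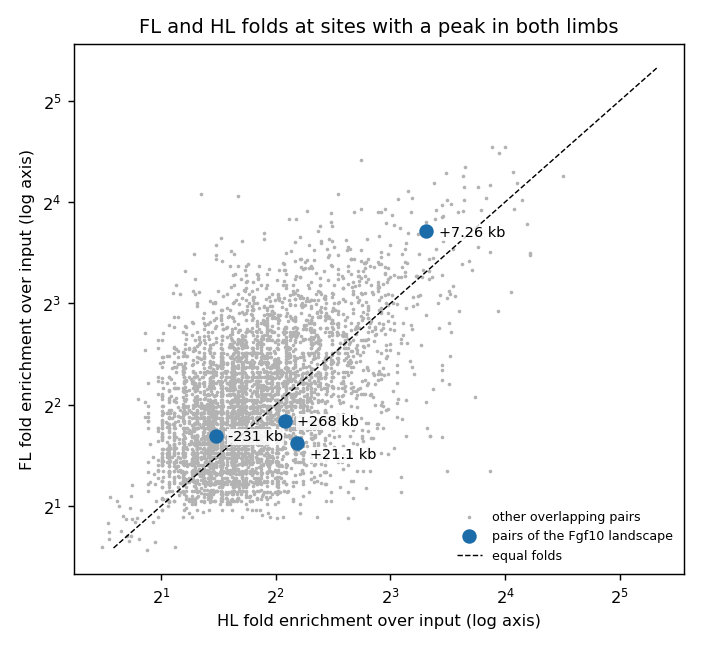
FL fold against HL fold (both log axes) for the 4813 sites with overlapping peaks, with the 4 sites of the Fgf10 landscape in blue, labelled by distance from the start, and a dashed line at equal folds. The 5′ site, 7.26 kb into the gene, sits high in both limbs and the other 3 lie in the bulk, with the site at 21.1 kb on the HL side of the line.

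The lengths of the members were set beside their folds, and an association was not tested. FL members were 119 to 589 bp long with a median of 211 bp, and HL members 100 to 487 bp with a median of 303 bp, against medians of 166 bp and 132 bp over the whole lists. In both limbs the longest member was also the one of the highest fold. The order did not hold throughout: the HL peak of 303 bp reached 2.78-fold, and that of 109 bp 3.07-fold. The HL peaks that overlapped an FL peak were all at least 303 bp long, and of the 5 that did not, 4 were at most 137 bp long, the exception being the 330 bp interval beside the 5′ site.

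**Figure D4:**
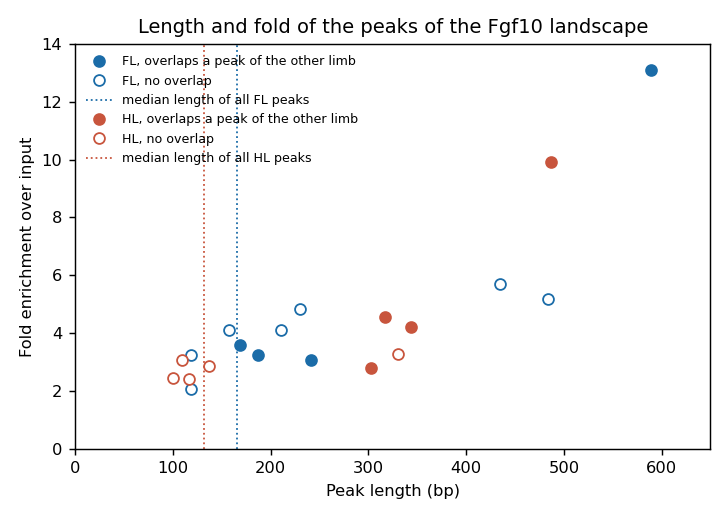
Fold enrichment over input against peak length in bp for the FL (blue) and HL (red) peaks of the Fgf10 landscape, filled where the peak overlapped one of the other limb, with dotted lines at the median length of each whole list. The 5′ site of intron 1 is at the upper right in both limbs, at 589 bp and 487 bp.

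Peaks were also counted around genes that act with Fgf10 in limb initiation. A start in mm9 was obtained for 7 of the 15 genes listed: the Fgf receptors Fgfr1 and Fgfr2, the T-box genes Tbx4 and Tbx5, the hindlimb regulators Pitx1 and Isl1, and Lef1 of the Wnt pathway. Fgf8, Fgf4, Tcf7, Wnt3, Wnt2b, Sall4, Sp6 and Sp8 were not analysed here. The starts came from genes that the study lists beside its peaks, so genes without a nearby peak are under-represented. Within 100 kb of its start, Fgf10 had 5 FL peaks, of which 3 had q at most 0.05, and 4 HL peaks, of which 2 did. In FLs, 4 of the 7 genes had such a peak within 100 kb: Tbx4 with 5 of 12 peaks, and Tbx5 with 1 of 8, Isl1 with 1 of 1 and Lef1 with 1 of 4. In HLs 2 genes did, Tbx4 with 2 of 16 and Pitx1 with 2 of 5. Of 13138 consecutive windows of 200 kb along all chromosomes, 19.6% held such an FL peak and 10.2% such an HL peak. Over the same span as the Fgf10 window, set relative to each start and strand, the highest FL fold exceeded the 13.1 of Fgf10 at 1 gene, Lef1, with 14.8, followed by Tbx4 with 12.1. In HLs it did so at none, and the highest of the 7 was 7.89 around Isl1, beside 9.92 at Fgf10. The spans held 6 to 57 FL peaks and 10 to 43 HL peaks, so that the Fgf10 landscape, with 11 and 9, held fewer FL peaks than every span but that of Isl1 and fewer HL peaks than any of the 7.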

How the data were processed

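Meis ChIP-seq of FL and HL buds was analysed from the deposited peak list of each limb. Reads had been aligned by the authors to mm9 (BWA), and MACS2 had called the peaks of a limb relative to its own input. The deposited fold is the ratio of ChIP to local input background at a summit, and the deposited −log10 p, −log10 q and score also come from the authors' peak caller. The input libraries have no peak list and were not analysed here.

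Rows with the same interval made 1 peak, which took the best fold, p and q among its summits. Peaks sharing at least 1 bp overlapped (bedtools 2.31.1), and where an FL peak met several HL peaks, the one of highest fold was its partner. Chromosome lengths for densities were the highest end in either list. Positions are counted from 1. Gene starts in mm9 came from peak-to-gene distances that the study lists, kept where they agreed within 2 bp. Guides, motifs and annotation (GENCODE M21, RefSeq GRCm38.p6) were used in GRCm38, and no coordinate was converted. The overlap count was tested on simulated data. Python 3.11.15, pandas 2.3.3 and scipy 1.17.1 were used.

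Named genes were Fgf10, its neighbours and a list of genes of limb initiation, and printed in full were shared sites, peaks with q at most 0.05 and the highest peak of each flank. Members, lists and motifs were chosen with earlier results of these data known. The sequences of the flanking peaks were not analysed here. Alternatives changed the p, q or fold cutoff, the overlap, the span and the background.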

Additional observations from a re-analysis of the deposited data

How the results depend on the processing

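Of 34 alternative values, 18 stayed close to the values reported, meaning within 1.5 times for counts and densities and within 0.1 for log2 ratios. The counts of summits fell from 11 to 6 in FLs and to 2 in HLs at q at most 0.05, to 3 and 1 at a fold of at least 5, and to 5 and 4 within 100 kb of the start. At p at most 0.0005 the HL count fell to 6. Shared peaks fell from 4 to 1 in either direction when both peaks had to reach q at most 0.05, and to 1 in FLs and 2 in HLs when the peak itself had to. The log2 ratio at the 5′ site fell from 0.41 to 0.24, and the median over the shared sites from -0.01 to -0.18, once the median of all pairs was subtracted. That median turned to 0.11 when the folds of all summits of a peak were averaged, which lowers the HL values at the sites with 2 HL summits. The density relative to all chromosomes rose from 0.972 to 3.03 in FLs and from 1.25 to 2.2 in HLs for summits with q at most 0.05, on 6 and 2 summits. No paired analysis was possible because each limb had 1 ChIP library and no test was made. How the results depend on depth was not tested.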
